A study of Mus musculus with 18 samples.

Results

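Transcript levels of 10 genes for subunits, effectors and relatives of the HUSH complex and its heterochromatin machinery were described in mouse colon. They were Mphosph8, Pphln1, Morc2a, Setdb1, Atf7ip, Trim28, Smchd1, Lrif1, Zfp638 and Zfp280d. The genes were taken by symbol from the 33977 genes of the deposited table, and each of the 10 matched 1 row. The names were chosen from earlier fits of these same libraries, in which several of the genes stood low in the tea libraries. Fold changes and p-values of the members are therefore descriptions of these libraries and lend no independent support to a difference.

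HUSH is a silencing complex that binds histone H3 trimethylated at lysine 9 and represses retroelements, other integrated foreign DNA and some host genes. It works with the methyltransferase SETDB1, which writes the same mark, and with the ATPase MORC2, which compacts the chromatin. TRIM28 brings SETDB1 to sites bound by KRAB zinc finger proteins, and SMCHD1 with its partner LRIF1 acts on the inactive X chromosome and on repeat arrays. Most of the biochemistry of HUSH comes from human cells.

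The colon tissue came from ICR mice, an outbred laboratory strain, with no engineered allele named in the labels and no age given. Saline (NC), a compound Suanzaoren (jujube kernel) capsule (FFZR) or Jinhua Hecha, a fermented green tea (JHHCG), was given for 44 days, the capsule and the tea by gavage. The titles add a letter, C or X, that the labels do not explain, so the 18 libraries are 6 groups of 3, named NCC, FFZRC, JHHCGC, NCX, FFZRX and JHHCGX and treated as set C and set X. Per the series' design text 3 mice were drawn per treatment, yet each treatment has 6 libraries, and no label ties a library to a mouse. The p-values therefore measure the spread between libraries, which may be technical.

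Library totals ran from 59206980 to 76830278 counts, and counts of the members in single libraries from 428 to 12022. The epithelial gene Epcam was present in every library, at 1172 to 2745 CPM (counts scaled to library size), while the goblet cell mucin gene Muc2 ranged from 30.4 to 2942 CPM. Mitochondrial transcripts took 5.48% to 24.9% of the counts. Summed transcripts of a cartilage list stood at 95.4 to 128 CPM in the 3 NCC libraries, NCX_124 and FFZRX_139, and at or under 0.496 CPM in the other libraries. Summed transcripts of a lung list were at 174 to 193 CPM in NCC and at 0 in all FFZRC libraries, and reached 273 CPM in NCX, 239 CPM in FFZRX, 237 CPM in JHHCGC and 121 CPM in JHHCGX. In bulk tissue, fewer cells of a type and less RNA per cell cannot be told apart.

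Per length of transcript, Trim28 was the most abundant member, with a median of 26.1 FPKM (fragments scaled by gene length and library size) over the 18 libraries. The other members had medians of 4.01 FPKM (Pphln1), 3.66 (Setdb1), 3.60 (Mphosph8), 3.49 (Morc2a), 2.53 (Atf7ip), 2.32 (Zfp638), 2.07 (Lrif1), 1.04 (Smchd1) and 0.697 (Zfp280d). Neighbours in this order from Pphln1 to Lrif1 lay within each other's ranges over the libraries. All further levels are CPM scaled by trimmed mean of M values and are compared only within a gene.

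The genes lie on chromosomes 3 (Setdb1, Lrif1), 6 (Atf7ip, Zfp638), 7 (Trim28), 9 (Zfp280d), 11 (Morc2a), 14 (Mphosph8), 15 (Pphln1) and 17 (Smchd1), in coordinates that match the mouse build GRCm38. Mphosph8 spans chr14:56668248-56697430, Lrif1 chr3:106684987-106736574, Zfp638 chr6:83867109-83986871 and Zfp280d chr9:72274860-72363516, each on the plus strand. Several members overlap other genes, and the sources used here do not say if strand entered the counting. Trim28 shares 6137 bases with Zbtb45 and Morc2a shares 483 bases with Tug1, both on the opposite strand. If strand was not used, reads there cannot be told apart. Other overlaps are on the same strand, where strand would not separate reads. Among these, Lrif1 shares 4678 bases of gene span with Gm38253 and Smchd1 2785 with Gm37639. Zfp638 shares 2772 with Gm43920 and Zfp280d 2006 with Gm37983.

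The promoters below belong to the 4 members with the lowest fold changes in tea of set X, and to Trim28, the member with the highest. They are RefSeq windows of GRCm38.p6, from 250 bases before to 50 bases after an annotated start, read 5′ to 3′ on the plus strand. Capitals mark the letters GGGCGG known for SP factors, CCGGAAG known for ETS factors, GCATGCGC known for NRF1 and CCAAT known for NF-Y, each on either strand, with overlapping matches joined. The windows are chr14:56667998-56668297 for Mphosph8, chr3:106721432-106721731 for Lrif1, chr6:83914103-83914402 for Zfp638, chr9:72274638-72274937 for Zfp280d and chr7:13023902-13024201 for Trim28. Lrif1 has a second RefSeq start, whose window holds none of these letters.
Mphosph8: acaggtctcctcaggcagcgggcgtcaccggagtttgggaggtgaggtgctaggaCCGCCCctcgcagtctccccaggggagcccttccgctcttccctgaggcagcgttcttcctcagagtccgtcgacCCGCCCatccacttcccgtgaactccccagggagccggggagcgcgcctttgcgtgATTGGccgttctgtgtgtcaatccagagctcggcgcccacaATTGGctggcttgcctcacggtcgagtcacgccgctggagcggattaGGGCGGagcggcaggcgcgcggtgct
Lrif1: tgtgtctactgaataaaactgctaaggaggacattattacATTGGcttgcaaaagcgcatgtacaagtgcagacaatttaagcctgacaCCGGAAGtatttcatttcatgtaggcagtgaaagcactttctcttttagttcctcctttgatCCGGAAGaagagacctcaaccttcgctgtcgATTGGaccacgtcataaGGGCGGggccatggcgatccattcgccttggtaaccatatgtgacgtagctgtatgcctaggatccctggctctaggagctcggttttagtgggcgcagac
Zfp638: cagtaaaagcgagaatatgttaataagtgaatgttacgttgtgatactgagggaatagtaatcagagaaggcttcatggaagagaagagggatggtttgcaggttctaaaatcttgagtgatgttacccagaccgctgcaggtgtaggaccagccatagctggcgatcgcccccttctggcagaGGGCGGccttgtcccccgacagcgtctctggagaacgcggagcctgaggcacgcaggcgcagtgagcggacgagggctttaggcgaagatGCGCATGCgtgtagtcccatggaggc
Zfp280d: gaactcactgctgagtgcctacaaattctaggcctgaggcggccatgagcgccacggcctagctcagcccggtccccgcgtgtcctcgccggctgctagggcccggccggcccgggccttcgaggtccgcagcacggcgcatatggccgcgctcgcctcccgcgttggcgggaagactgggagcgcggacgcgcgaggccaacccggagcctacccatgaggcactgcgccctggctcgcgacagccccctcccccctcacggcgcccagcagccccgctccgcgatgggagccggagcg
Trim28: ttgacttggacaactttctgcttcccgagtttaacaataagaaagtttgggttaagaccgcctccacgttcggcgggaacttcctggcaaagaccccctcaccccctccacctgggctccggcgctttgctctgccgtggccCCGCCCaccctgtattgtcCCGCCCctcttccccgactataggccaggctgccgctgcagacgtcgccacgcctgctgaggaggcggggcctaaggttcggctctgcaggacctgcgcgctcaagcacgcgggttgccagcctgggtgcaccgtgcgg

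All 10 members had a RefSeq entry, with 13 windows in all. GGGCGG was found in 8 of the 13 windows and in 35.7% of 32851 mouse promoters, and CCAAT in 5 windows and in 37.4%. CCGGAAG stood in 4 windows (8.86% of all promoters) and GCATGCGC in 2 (2.71%), one of them that of Zfp638. AAGATGG (6.34% of all promoters), TGACGTCA (1.79%) and CACGTG (7.15%) were in none of the 13 windows. The 4 promoters of the low members did not have a searched motif in common, since Zfp280d holds none of them. Their GC content was 67.0% for Mphosph8, 47.7% for Lrif1, 54.3% for Zfp638 and 73.7% for Zfp280d, beside 64.0% for Trim28 and a median of 52.7% over all promoters. A match of letters is a description and not evidence of binding.

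The tea libraries of set X held less Mphosph8, Lrif1, Zfp638, Zfp280d and Smchd1 transcript than any other library, and the saline libraries of set X held more Mphosph8, Morc2a and Zfp280d than any other. For Mphosph8, Lrif1, Zfp638 and Zfp280d the level in tea of set X was 2.63- to 2.96-fold lower than in saline of set X. Trim28 and Atf7ip did not separate these groups. No member was called at an adjusted p under 0.05 in edgeR's quasi-likelihood test (0 of 10, beside 0% of 20889 genes), and 3582 genes had an unadjusted p under 0.05. DESeq2 called 5 members among 1943 of the 20889 genes in the same libraries.

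**Figure D1:**
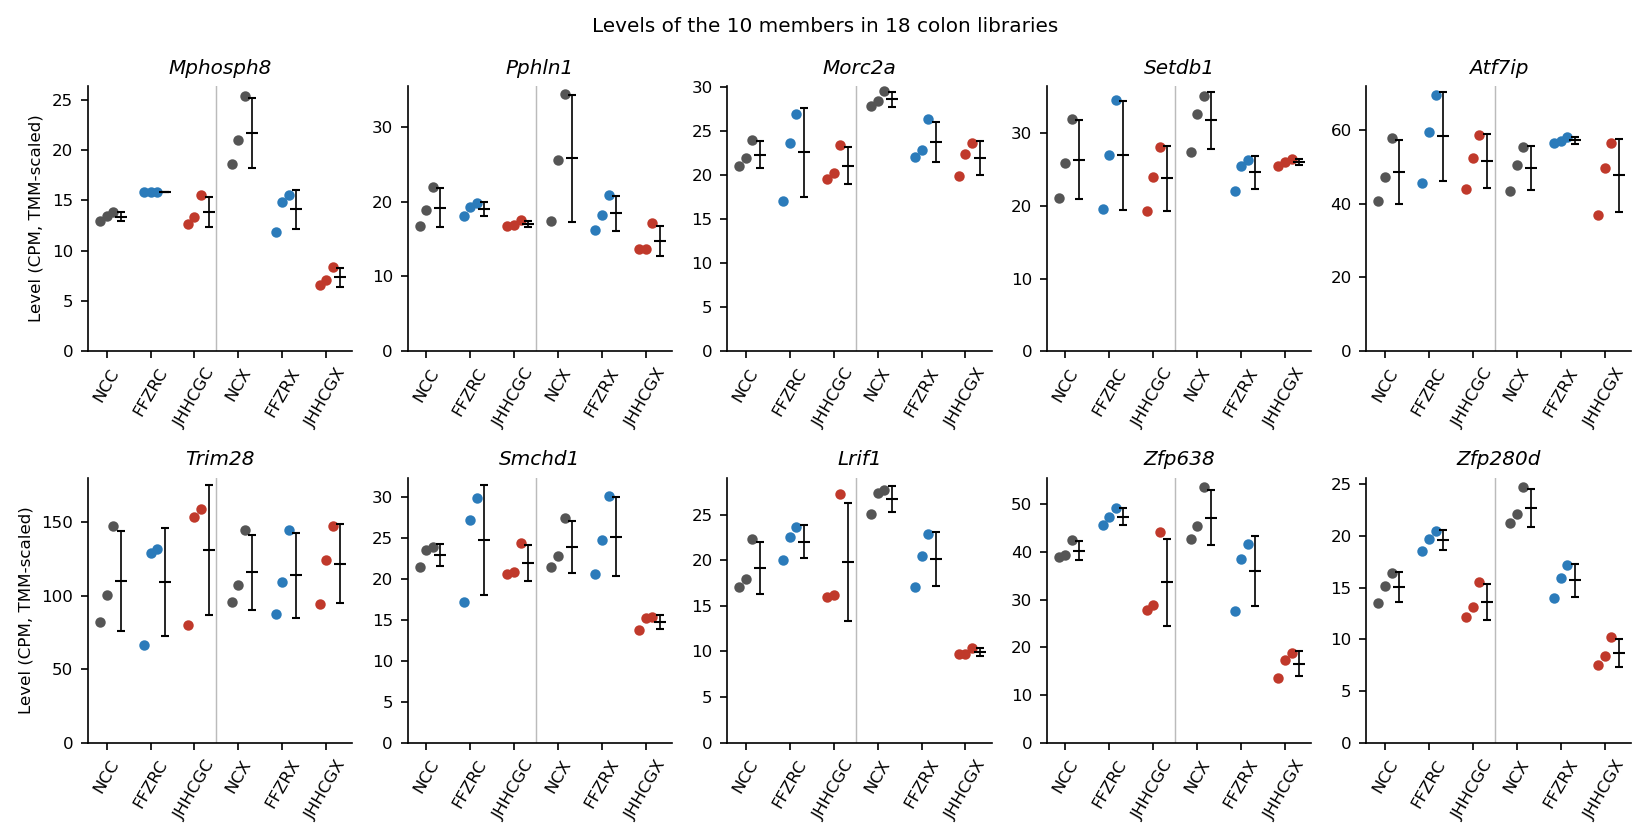
Levels of the 10 members in the 18 libraries (CPM, TMM-scaled, each axis starting at 0), by group, with points for libraries and bars for the mean ± SD of 3 libraries. In the JHHCGX group Mphosph8 sits between 6.57 and 8.38 CPM, below every other library, while Trim28 overlaps across all 6 groups.

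Mphosph8 encodes MPP8, the chromodomain subunit of HUSH that reads H3K9 trimethylation. It measured 8.38, 6.57 and 7.08 CPM in tea, 18.7, 21.02 and 25.4 CPM in saline and 14.9, 15.6 and 11.9 CPM in capsule libraries of set X. The 3 tea libraries were the lowest and the 3 saline libraries the highest of all 18. In set C it measured 12.9, 13.8 and 13.5 CPM in saline, 15.8, 15.9 and 15.8 CPM in capsule and 12.6, 13.3 and 15.5 CPM in tea libraries. The tea-to-saline log2 fold change in set X was -1.56 ± 0.21 (SE, n = 3 per group, edgeR adjusted p = 0.0664).

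Pphln1, the gene for periphilin, another HUSH subunit, measured 13.7, 13.6 and 17.1 CPM in tea and 17.4, 25.6 and 34.4 CPM in saline libraries of set X. The groups did not overlap, but the highest tea library lay next to the lowest saline library. Its log2 fold change was -0.80 ± 0.26 (SE, n = 3 per group, edgeR adjusted p = 0.173).

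Morc2a, the mouse counterpart of the MORC2 ATPase that HUSH recruits, measured 23.6, 19.9 and 22.5 CPM in tea and 27.8, 28.5 and 29.5 CPM in saline libraries of set X. The saline libraries were tightly grouped and stood above all other 15, with a tea-to-saline log2 fold change of -0.38 ± 0.15 (SE, n = 3 per group, edgeR adjusted p = 0.248). The antisense overlap with Tug1 applies to these counts.

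Setdb1 and Atf7ip encode the H3K9 methyltransferase and the cofactor that protects it from degradation. Setdb1 measured 26.4, 26.0 and 25.6 CPM in tea and 27.5, 35.2 and 32.7 CPM in saline libraries of set X, without overlap. Its log2 fold change was -0.29 ± 0.16 (SE, n = 3 per group, edgeR adjusted p = 0.381). Atf7ip measured 49.7, 56.4 and 37.0 CPM in tea and 55.3, 43.5 and 50.6 CPM in saline, with a log2 fold change of -0.06 ± 0.18 (SE). Its groups overlapped.

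Trim28, the corepressor that KRAB zinc finger proteins recruit, measured 147.1, 124.2 and 94.0 CPM in tea and 145, 107 and 95.8 CPM in saline libraries of set X. The groups overlapped along their whole length, and the log2 fold change was 0.07 ± 0.25 (SE, n = 3 per group). Its direction depended on the setting, from -0.15 to 0.28 over 20 settings, so none is drawn.

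Smchd1 encodes a chromatin protein of the SMC family that is needed for silencing on the inactive X chromosome. It measured 13.7, 15.3 and 15.2 CPM in tea, 27.4, 21.4 and 22.8 CPM in saline and 24.7, 30.1 and 20.6 CPM in capsule libraries of set X. Tea stood below both other groups, while saline and capsule overlapped. In set C it ranged from 17.2 to 29.9 CPM, and the tea-to-saline log2 fold change in set X was -0.70 ± 0.19 (SE, n = 3 per group, edgeR adjusted p = 0.129).

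Lrif1, whose human counterpart links SMCHD1 to the heterochromatin protein HP1, measured 9.69, 9.74 and 10.4 CPM in tea libraries of set X. Saline libraries of the set held 25.0, 27.7 and 27.4 CPM and capsule libraries 20.4, 22.9 and 17.04 CPM. The 3 tea libraries lay within a narrow band below all others, and the saline libraries were above the capsule libraries. In set C the range was 15.98 to 27.3 CPM, the highest value being a tea library. The log2 fold change of tea against saline in set X was -1.43 ± 0.17 (SE, n = 3 per group, edgeR adjusted p = 0.0664).

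Zfp638 is the mouse gene for ZNF638, also called NP220, a DNA-binding protein that in human cells silences unintegrated retroviral DNA together with HUSH. It measured 18.8, 17.2 and 13.6 CPM in tea, 45.3, 42.7 and 53.6 CPM in saline and 38.6, 41.7 and 27.7 CPM in capsule libraries of set X. All 9 libraries fell in the order tea, capsule, saline without overlap between groups. In set C the values were 39.3, 38.9 and 42.6 CPM in saline, 45.6, 47.3 and 49.1 CPM in capsule and 29.0, 27.8 and 44.2 CPM in tea. The tea-to-saline log2 fold change in set X was -1.51 ± 0.21 (SE, n = 3 per group, edgeR adjusted p = 0.0664).

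Zfp280d, a gene for a zinc finger protein, measured 10.2, 7.47 and 8.34 CPM in tea, 21.3, 22.1 and 24.8 CPM in saline and 15.9, 17.2 and 14.0 CPM in capsule libraries of set X. As for Mphosph8, tea held the 3 lowest and saline the 3 highest of the 18 libraries. In set C it measured 13.5, 16.5 and 15.1 CPM in saline, 20.5, 18.6 and 19.7 CPM in capsule and 13.1, 12.2 and 15.5 CPM in tea. The tea-to-saline log2 fold change in set X was -1.39 ± 0.19 (SE, n = 3 per group, edgeR adjusted p = 0.0664).

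Against all genes of the table, 8 of the 10 members had all tea values under all saline values in set X, beside 11.4% of genes, and 7 had an unadjusted p under 0.05 with a lower level, beside 10.2%. The members' median log2 fold change was -0.75 and that of all tested genes -0.06. Tea of set X lay below the other 15 libraries for 5 members (1.81% of 22380 genes), saline of set X above them for 3 members (0.407%), and both for 2 members, Mphosph8 and Zfp280d (0.076%). Since the members were chosen on these libraries, nothing is read from these shares. The adjusted p of 0.0664 was the smallest in the comparison and was shared by 146 genes, of which 106 were lower in tea and 4 were members. Without the saline library NCX_124, the same 4, Mphosph8, Lrif1, Zfp638 and Zfp280d, had an adjusted p of 0.0455, and 540 genes were called.

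**Figure D2:**
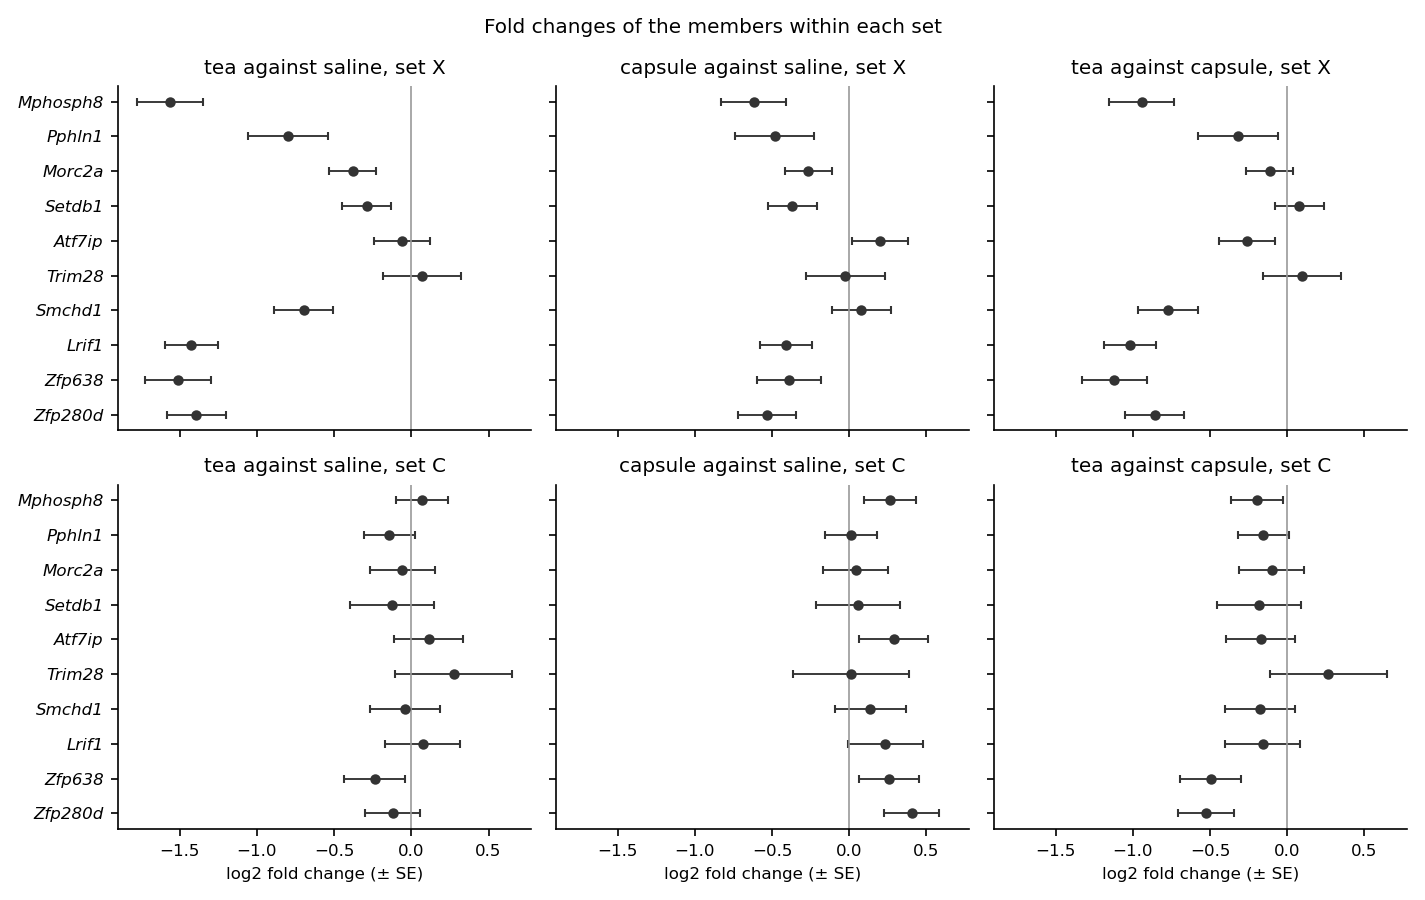
Log2 fold changes of the 10 members (x axis; points ± SE of edgeR's fit) for the comparisons within set C and within set X. In set X, tea against saline, 4 members lie between -1.56 and -1.39 and Trim28 at 0.07, while in set C the same comparison spans -0.24 to 0.28.

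The low members were also the AT-rich ones. Transcript GC content was 36.5% for Lrif1, 39.3% for Zfp280d, 40.1% for Zfp638, 42.2% for Smchd1, 42.6% for Mphosph8 and 43.9% for Pphln1, against 47.7% for Atf7ip, 49.4% for Setdb1, 49.7% for Morc2a and 59.6% for Trim28. Over 20852 genes with a transcript in the annotation, the tea-to-saline log2 fold change of set X had medians of -0.57, -0.17, 0.03, 0.17 and 0.19 over 5 bins of equal size from the lowest to the highest GC. Spearman's rho between fold change and GC was 0.33 across those genes and 0.77 across the 10 members, which share the libraries. In set C the medians ran from -0.10 to 0.10. The shift was common to the 3 tea libraries of set X, whose most AT-rich genes (the lowest of 5 bins by GC) deviated by -0.42 to -0.29 on the log2 scale, beside -0.13 to 0.22 in the other 15.

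After each library's GC trend was removed, with limma on log2 CPM, the fold changes of the low members were smaller. Mphosph8 stood at -1.11, Zfp638 at -0.87, Zfp280d at -0.68, Lrif1 at -0.51, Pphln1 at -0.41 and Smchd1 at -0.21 on the log2 scale (limma adjusted p from 0.213 to 0.617). Mphosph8 remained the member with the lowest fold change, and Lrif1, the most AT-rich, was nearer to Morc2a at -0.39. The part of GC content in the levels was not tested further. On log2(FPKM + 1), a scale that understates changes of genes with low values, Zfp638 was at -0.995, Lrif1 at -0.95, Zfp280d at -0.61 and Smchd1 at -0.37.

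**Figure D3:**
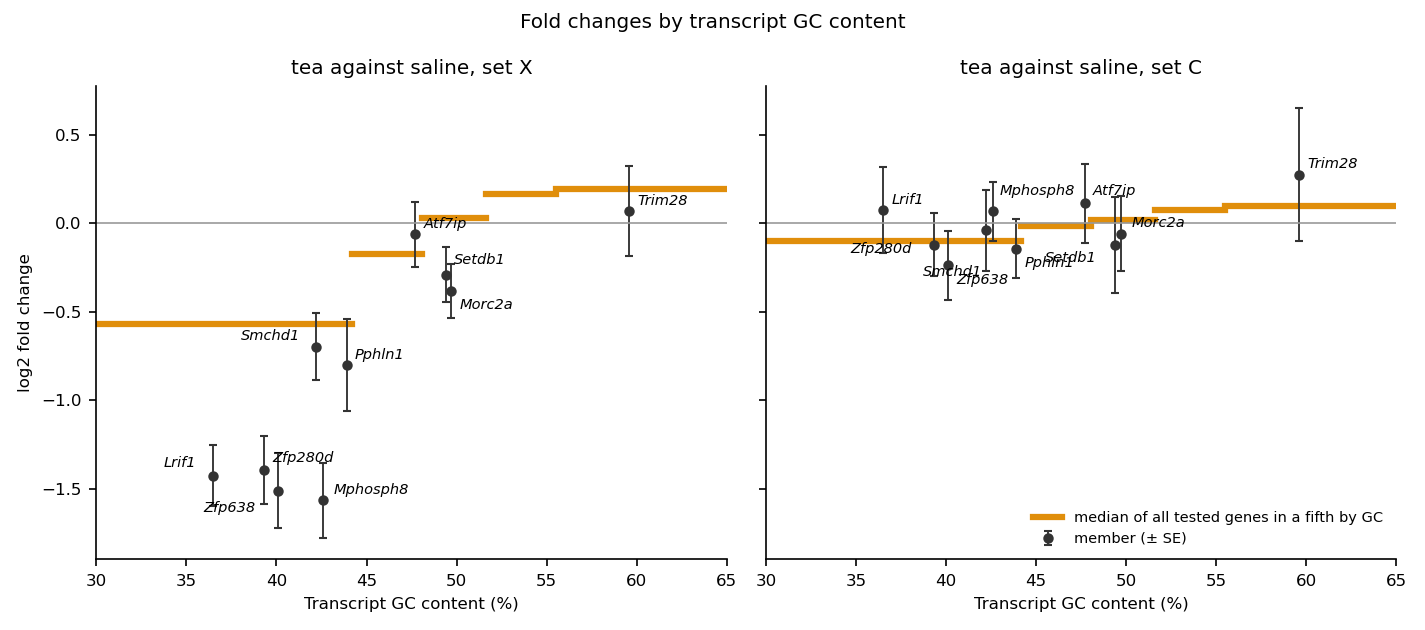
Log2 fold change of tea against saline (y axis) by transcript GC content in percent (x axis) for the 10 members (points ± SE), in set X and set C, with orange lines for the median of all tested genes in each of 5 bins by GC. In set X the line climbs from -0.57 to 0.19. Every member except Atf7ip lies below it, with Trim28, Smchd1 and Pphln1 within their SE of it. As many genes of a bin lie below its median as above. Since the members were chosen on these libraries, nothing is read from their place.

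Markers of cell types also differed in level between these groups. All 6 colon epithelium markers were higher in tea than in saline of set X without overlap, with a median log2 fold change of 0.79, and the summed list ran from 11115 to 13672 CPM in tea and from 6194 to 8684 CPM in saline. The 5 fibroblast markers were all lower (median -1.15, summed 227 to 432 CPM in tea and 484 to 1239 CPM in saline). So were the 5 smooth muscle markers (median -1.18, 5117 to 13337 and 5617 to 27389 CPM). The 7 neuron and glia markers had a median of -0.67, with sums from 85.1 to 245 CPM in tea and from 59.5 to 331 CPM in saline. The lists of adipocyte, skeletal muscle and lung markers pointed the same way, with groups that overlapped for most of their genes. All 4 adipocyte markers (median -3.75, summed 16.7 to 23.0 CPM in tea and 15.6 to 219 CPM in saline), all 4 skeletal muscle markers (median -1.83, 14.0 to 42.4 and 29.4 to 94.1 CPM) and all 4 lung markers (median -0.99, 0 to 121 and 0 to 273 CPM) had negative log2 fold changes. Goblet cell, leukocyte and cycling cell lists had medians of 0.27, 0.31 and 0.13. Without NCX_124 and FFZRX_139, the libraries with cartilage transcripts, the 4 lowest members were at -1.65 to -1.42.

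Of the RNA quality measures, 6 of 6 nuclear or intron-retaining transcripts were lower in tea of set X, with a median log2 fold change of -0.87. Clk4, a splicing kinase gene with retained introns, ranged from 37.7 to 50.7 CPM in tea and from 71.0 to 86.5 CPM in saline. Mitochondrial transcripts took 6.52% to 12.2% of the counts in tea and 6.02% to 18.9% in saline. With mitochondrial percent in the model, the log2 fold changes of the 4 lowest members were -1.55 to -1.34 and that of Pphln1 was -0.52. Without the 3 libraries of high mitochondrial share in the set, which leaves a single saline library assumed to vary like the other groups, the 4 were at -1.36 to -1.26, Pphln1 at -0.34 and Setdb1 at -0.06. Setdb1 was at -0.18 without NCX_134 alone. No gene of the marker and RNA quality lists was called by edgeR, and the part of tissue makeup and of nuclear transcripts in the members' levels was not tested.

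Tea against capsule in set X showed the same 5 members low. Mphosph8 differed by -0.94 ± 0.21, Smchd1 by -0.77 ± 0.19, Lrif1 by -1.02 ± 0.17, Zfp638 by -1.12 ± 0.21 and Zfp280d by -0.86 ± 0.19 on the log2 scale (SE, n = 3 per group, edgeR adjusted p from 0.516 to 0.528). The groups did not overlap for 6 members, these 5 and Atf7ip, beside 8.72% of genes. No member and no gene was called (0%), with 1235 genes at an unadjusted p under 0.05. DESeq2 called 5 members among 242 of 20889 genes. With the GC trend removed, Zfp638 was at -0.69, Smchd1 at -0.46, Zfp280d at -0.39 and Lrif1 at -0.38. Mphosph8 ran from -1.02 to -0.66 over 20 alternative settings, the GC setting among them. In this comparison Spearman's rho between fold change and GC was 0.33 across genes and 0.90 across the 10 members. The 6 nuclear or intron-retaining transcripts were all lower in tea (median -0.78, 4 without overlap), as were the 4 skeletal muscle markers (median -3.64, 3 without overlap), the 4 adipocyte markers (median -3.74) and the 4 lung markers (median -2.44). Their part in the members' levels was not tested.

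Capsule against saline in set X showed smaller differences. Mphosph8 was lower by a log2 fold change of -0.62 ± 0.21, Zfp280d by -0.53 ± 0.19, Lrif1 by -0.41 ± 0.17, Zfp638 by -0.39 ± 0.21, Setdb1 by -0.37 ± 0.16 and Morc2a by -0.27 ± 0.15 (SE, n = 3 per group, edgeR adjusted p from 0.517 to 0.586). These 6 did not overlap between groups, beside 5.9% of genes, and Atf7ip was higher without overlap, beside 6.84%. No gene was called (0%), with 2014 at an unadjusted p under 0.05. Both treatments are set against the same 3 saline libraries, which were the highest of all 18 for Mphosph8, Morc2a and Zfp280d. Cell type markers differed as well. Smooth muscle (median log2 fold change -1.51), neuron and glia (-1.18) and fibroblast (-0.81) markers were all lower in capsule, mostly with overlapping groups. All 6 epithelium markers were higher (0.62, 3 without overlap), and the skeletal muscle and lung lists had medians of 1.81 and 1.67. The part of tissue makeup in the members' levels was not tested. With the GC trend removed, Zfp280d was at -0.29, Zfp638 at -0.18 and Lrif1 at -0.13. Without the 3 libraries of high mitochondrial share, which left NCX_124 as the single saline library, Mphosph8 was at -0.40 and Setdb1 at -0.16. Over 20 alternative settings, the GC setting among them, Mphosph8 ran from -0.73 to -0.40, Setdb1 from -0.50 to -0.16 and Morc2a from -0.35 to -0.20.

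In set C the members' tea and saline libraries lay closer together. Tea against saline gave log2 fold changes from -0.24 to 0.28, no member was lower without overlap (beside 7.67% of genes), and no gene was called (0% of 20964, with 668 at an unadjusted p under 0.05). Capsule against saline gave 10 positive values, from 0.01 to 0.40, with the highest for Zfp280d at 0.40 ± 0.18 (SE, n = 3 per group, edgeR adjusted p = 0.872). Mphosph8, Zfp638 and Zfp280d were higher without overlap, beside 4.26% of genes, and none of the 23 genes called (0.11%) was a member. Of the 23, 9 were in the marker lists, all lower in capsule, with 4 of lung, 3 of cartilage, 1 of adipocytes and 1 of skeletal muscle. The cartilage list summed to 101 to 128 CPM in the 3 saline libraries and 0 to 0.285 CPM in the 3 capsule libraries, and the adipocyte list to 218 to 287 and 13.2 to 20.2 CPM. Since all 3 saline libraries of set C carry these transcripts, their presence and the treatment cannot be told apart.

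Tea against capsule in set C gave log2 fold changes of -0.50 for Zfp638 and -0.53 for Zfp280d, with edgeR adjusted p = 0.936 and 0.903. Mphosph8, Pphln1, Zfp638 and Zfp280d were lower in tea without overlap, beside 4.19% of genes, and no member was among the 3 genes called (0.0143%). All 3 were lung markers, higher in tea. The members' values share the capsule libraries with the preceding comparison. Medians over all genes ran from -0.18 in the lowest to 0.16 in the highest of 5 bins by GC. Spearman's rho between fold change and GC was 0.26 across genes and 0.61 across the 10 members, whose cause was not tested.

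The difference between the sets was tested in a joint fit of the 18 libraries. The saline groups compared differed in cartilage transcripts, found in all 3 NCC libraries and in NCX_124 alone of NCX. Their part was not tested. The tea-to-saline log2 fold change was lower in set X than in set C by -1.61 ± 0.24 for Mphosph8, which ranked first by p among 22380 genes (edgeR adjusted p = 0.199). Since the members were chosen on these libraries, nothing is read from this rank. Lrif1 differed by -1.48 ± 0.29, Zfp638 by -1.25 ± 0.29, Zfp280d by -1.25 ± 0.24 and Smchd1 by -0.63 ± 0.29 (SE, edgeR adjusted p from 0.414 to 0.805). No gene was called (0%), with 1346 at an unadjusted p under 0.05, while DESeq2 called 4 members among 118 of the 22380 genes. With the GC trend removed, Lrif1 was at -0.79, Zfp638 at -0.79, Zfp280d at -0.76 and Smchd1 at -0.32. For the same difference Mphosph8 ran from -1.78 to -1.25 over 27 alternative settings, the GC setting among them. This difference had medians of -0.44 in the lowest and 0.10 in the highest of 5 bins by GC, and the 6 nuclear or intron-retaining transcripts were all negative (median -0.84), whose part was not tested. The difference of the capsule effect called 3 genes (0.0134%), none a member, where DESeq2 called 2 members among 143 of the 22380 genes. The sets themselves differed in 9 genes (0.0402%), none a member, and the member with the smallest p was Zfp638, at -0.40 ± 0.12 in set X against set C (SE, edgeR adjusted p = 0.557).

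Mphosph8, Lrif1, Zfp638 and Zfp280d varied together over the libraries. Their 6 pairs had Pearson's r of 0.916 to 0.965 for log2 CPM over 18 libraries, and 0.632 to 0.829 over the 12 libraries outside saline and tea of set X. Trim28 had r of -0.28 to -0.15 with the same 4 genes over the 18 libraries. Smchd1 had r of 0.653 to 0.740 with them over 18 libraries and 0.173 to 0.310 over the 12. The 4 genes and Trim28 were picked as the lowest and highest members in tea against saline of set X. Their r over libraries that include these groups follows in part from that choice. All of these are descriptions of libraries that share depth and composition.

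Of 14184 genes with a mean of at least 1 CPM, the 8 closest to the members' mean log2 level were Nol8 (r = 0.967), Shprh (0.952), Esf1 (0.952), Zfp808 (0.945), Zfp930 (0.939), Thoc1 (0.937), Zfp955a (0.936) and Htatsf1 (0.934), over 18 libraries. Their transcript GC content was 36.3% to 46.4%. Nol8 averaged 4.96 CPM in tea and 15.8 CPM in saline of set X.

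Of 8 genes for partners of HUSH or relatives of its subunits and effectors, outside the 10 members, 6 were tested and none was called. All 6 had negative tea-to-saline log2 fold changes in set X (median -0.80, all genes -0.06). Resf1, whose product is known to work with SETDB1 in silencing retroelements, stood at -1.25 ± 0.21 (SE, edgeR adjusted p = 0.0664), and Tasor2 at -1.83 ± 0.37 (0.0800). Tasor, the scaffold subunit of HUSH, stood at -0.86 ± 0.23 (0.116), with 15.7 to 23.7 CPM in tea and 28.9 to 39.7 CPM in saline. These 3 and Morc4 were lower without overlap, 4 of the 6 tested beside 11.4% of all genes. Morc3 and Atf7ip2 overlapped, and Morc3 in a single tea library, at 32.8 CPM, was above the lowest saline library at 31.7 CPM.

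**Figure D4:**
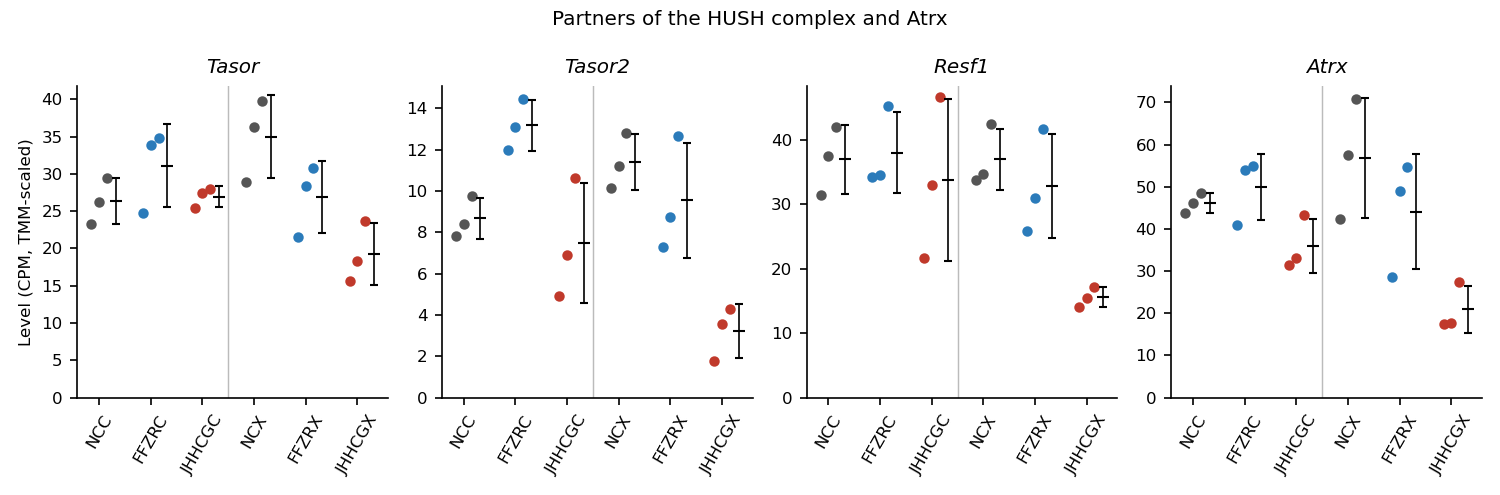
Levels of Tasor, Tasor2, Resf1 and Atrx in the 18 libraries (CPM, TMM-scaled, axes starting at 0) by group, with points for libraries and bars for mean ± SD of 3. The JHHCGX group is the lowest of set X for all 4 genes, with Tasor2 at 1.76 to 4.31 CPM.

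The 6 tested of 7 KRAB zinc finger genes, which recruit TRIM28, also all had negative values in tea against saline of set X (median -0.59), led by Zfp445 at -1.34 ± 0.22 and Zfp932 at -1.70 ± 0.43 (SE, edgeR adjusted p = 0.0664 and 0.113). By median, other silencing systems were nearer to all genes, and the part of GC content in these lists was not tested. The 13 genes of ATRX and chromatin assembly had a median of 0.01. Of these, 3 were lower at an unadjusted p under 0.05 in edgeR, beside 10.2% of all genes. Among the 3 were Atrx itself at -1.44 ± 0.31 (adjusted p = 0.0858) and Ubn2, of the HIRA histone chaperone complex, at -0.77 ± 0.14 (0.0664). The 12 other H3K9 methyltransferase and HP1 genes had a median of -0.14, with Ehmt2, the G9a methyltransferase, at 0.61 ± 0.15 (0.110) and Cbx5, the HP1 alpha gene, at -0.35 ± 0.17 (0.337).

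The 15 DNA methylation genes had a median log2 fold change of -0.15 (Dnmt3a -0.37, Mbd2 0.28), and the 22 Polycomb genes of -0.06, with Suz12 at -0.66 and Bmi1 at -0.74. The 8 H3K9 demethylase genes had a median of 0.02, with Kdm4c at -0.58 and Kdm3a at -0.35. Of 5 imprinted genes in the chromosome 7 cluster that depends on Smchd1, 3 were tested, with a median of -0.50 (Ndn -0.84 ± 0.75, Mkrn3 -0.50 ± 0.79). None of the genes in these lists was called.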

How the data were processed

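Per the labels' protocols, libraries were made with oligo(dT) beads from 5 µg of total RNA. The submitters' processing notes name cutadapt 1.9, HISAT2 2.0.4, StringTie 1.3.4d and edgeR, and list the build hg38, but identifiers and coordinates match mouse GRCm38. The authors deposited a whole-number read count and an FPKM value per gene and library, per the file headers. The sources used here do not state the handling of reads with several matches.

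The counts were tested with edgeR 4.0.16 in R 4.3.3 (TMM, filterByExpr with a count minimum of 10, quasi-likelihood test, Benjamini-Hochberg threshold 0.05). Each set was fitted alone, and the differences between sets in a joint fit. Standard errors are the log2 fold change divided by the square root of F. All genes that passed the filter entered each fit. The procedure was run on simulated data with less spread between libraries than the real ones, which does not tell how many changes are missed here. DESeq2 1.42.0, limma 3.58.1 on log2(FPKM + 1) and log2 CPM, and omitted libraries were alternatives. No pair of libraries in a group agreed within sampling noise (chi-square per degree of freedom of at least 66.5).

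Named genes are all members, the 2 of each related list with the smallest p in tea against saline of set X, and the 8 closest in pattern, plus Tasor, Morc3, Morc4, Atf7ip2, Clk4 and the markers Epcam and Muc2, chosen after their values were seen. The members and lists were chosen with earlier results of these data known.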

Additional observations from a re-analysis of the deposited data

How the results depend on the processing

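No member was called in the main fits. DESeq2 called 5 members in tea against saline and 5 in tea against capsule of set X. It called 4 in the difference of the tea effect and 2 in that of the capsule effect. The totals over all genes stand with each comparison above. Fitting all 18 libraries together called 4 members, among 448 of 22380 genes, in tea against saline of set X. Leaving out single libraries gave 0 to 4, the 4 without NCX_124. Other counts of members did not move.

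Of 200 alternative values of single members in tea against saline of set X, 176 kept their direction and their side of the threshold, 13 passed it and 11 turned direction, all of Trim28 or Atf7ip, from values near 0. Trim28 turned to -0.0329 and -0.0338 on log2 FPKM with pseudocounts of 1 and 0.1, to -0.146 with mitochondrial percent in the model, to -0.111 with the GC trend removed and to -0.0874 without the 3 libraries of high mitochondrial share. Its values without single libraries ran from -0.0614 to 0.276. Atf7ip turned to 0.0222 with the GC trend removed and to 0.0363 without the 2 libraries with cartilage transcripts, and ran from -0.189 to 0.0754 without single libraries. Of 100 values in tea against capsule of set X, 95 kept both and 5 passed the threshold, and of 135 for the tea difference 131 and 4. No value turned in the other comparisons. The cause was not tested.

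The GC-trend setting and limma on log2 CPM were chosen after seeing the data. No paired analysis was possible because the groups share no replicate number. Each member had at least 428 counts in every library. On log2(FPKM + 1), Smchd1 was at -0.42, Lrif1 at -0.67, Zfp638 at -0.72 and Zfp280d at -0.36 in tea against capsule of set X, and at -0.32, -0.93, -0.76 and -0.53 in the tea difference.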
